A study of Mus musculus with 9 samples.

Results

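The genes described here are the ligands and receptors of the tumour necrosis factor (TNF) superfamily and the signalling chain that runs from them to the transcription factor NF-κB. They were measured by RNA-seq in invariant natural killer T cells of the iNKT1 subset from mouse thymus, liver and spleen. They were chosen by name alone: symbols that begin with Tnfrsf, Tnfsf, Traf and a digit, or Nfkb, and 14 further symbols (Rel, Rela, Relb, Ikbkb, Ikbkg, Chuk, Tnfaip3, Birc2, Birc3, Ripk1, Cd27, Fas, Lta and Ltb). This gave 55 of the 14004 genes in the table. They were 9 ligands, 18 receptors, 13 adapters and associated proteins, 3 subunits of the IκB kinase and 5 NF-κB subunits. The other 7 were grouped here as inhibitors. Another 10 symbols that meet the rule were not analysed here, among them Tnfrsf17, Tnfrsf11a, Tnfsf13 and Tnfsf13b. The 3 groups are thymus, liver and spleen, with 3 libraries each, and the tissue is the difference between them that the labels give. All mice were C57BL/6, all were untreated, and all had the same genotype, a Cre transgene under the control of Tbx21 with a YFP reporter at Rosa26 that Cre switches on (Tbx21CreTg;Rosa26-LSL-YFP+/+). Tbx21 encodes T-bet, the transcription factor that defines iNKT1 cells, so the reporter also marks cells that expressed the transgene earlier. Age, sex, the sorting gate and the number of animals behind a library were not given in the sources used here, so the p-values below measure only the spread between these libraries.

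As background, ligands of the TNF superfamily are mostly trimers on the surface of immune cells, and they cluster receptors whose tails recruit TRAF adapters or death-domain proteins. In the canonical route the IκB kinase tags IκB inhibitors for destruction and frees dimers such as p50 with RelA or c-Rel. In the noncanonical route, p100 is processed to p52, which pairs with RelB. Several inhibitors, Nfkbia and Tnfaip3 among them, are themselves NF-κB targets and close a feedback loop. In T cells the co-stimulatory members (CD27, OX40, 4-1BB and GITR) are known for supporting survival and cytokine output, and liver iNKT cells are known for killing through TRAIL and Fas ligand.

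Values are the authors' normalised read counts, given for replicates 1, 2 and 3 of each tissue in that order, and "no read" stands for a value that corresponds to 0 recovered reads. Recovered depth ran from 18503326 to 27717733 reads in thymus and from 32454673 to 39538940 in spleen, whereas liver replicate 3 had 3872451 against 31562432 and 27668115 in the other liver libraries. The libraries numbered 2 held 83497 or more reads of the X-linked Xist and 21 or fewer of 4 Y-linked genes, thymus replicate 3 held many of both (13200 and 7016), and the other libraries at most 168 of Xist. Thymus libraries differed most among themselves: over the 47 members with a mean of at least 100, the median within-tissue SD of log2 values was 1.13 in thymus, 0.449 in liver and 0.475 in spleen, close to the 1.13, 0.575 and 0.582 over all such genes. All 11 iNKT1 and T cell markers, Tbx21, Zbtb16 and Klrb1c among them, had more than 3 reads in every library. Markers of other cells were uneven. The summed value of 6 B cell genes was 4120 in spleen replicate 1 and 853 in liver replicate 1, and at most 303 in the other libraries. The summed value of 5 myeloid genes was 2387 in spleen replicate 1, with 563 or less elsewhere. The sum of 5 hepatocyte genes was 1260 to 1650 in liver, nearly all of it Alb, 0.0976 to 269.6 in thymus and 0 to 189.7 in spleen. For 5 immature thymocyte genes the sum was 16.9, 5.92 and 936 in thymus replicates 1, 2 and 3. It was 88.8 to 1157 in liver, most of it Cd8a, and 2.68 to 26.8 in spleen. The part of such cells in the values of thymus replicate 3 was not tested.

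Most of the chain from TNF receptors to NF-κB was transcribed in iNKT1 cells of all 3 tissues. In a library, 42 to 51 of the 55 members were above 3 reads. That was 76.4% to 92.7% of the members, beside 71.4% to 90% of all genes in the table. A group of 11 members, 20.4% of those tested beside 6.86% of all genes, were at higher values in every spleen than in every liver library. Among them were Tnfrsf9 (the receptor 4-1BB), Nfkbia (the inhibitor IκBα) and Rel (the subunit c-Rel). Some of the 11 barely separated, such as Nfkbib, with nearest liver and spleen values of 893 and 897. Tnfsf10 (the death ligand TRAIL) was at its highest in the 3 liver libraries. No member passed the main test in any comparison. In limma-trend fits on log2(value + 1) with Benjamini-Hochberg adjustment over 13309 genes, 0 of the 54 members tested had an adjusted p under 0.05 in liver against thymus, where 0.323% of all genes did. The count was also 0 in spleen against thymus (0.398% of all genes), in liver against spleen (0.015%) and in the F-test over the 3 tissues (0.346%). At an unadjusted limma p under 0.05 there were 5 members in liver against thymus (11.6% of all genes). Of these, 4 were higher in liver (7.72% of all genes): Tnfrsf13b, Tnfsf10, Tnfsf11 and Traf1. The other, Rel, was lower in liver (3.92%). In spleen against thymus there were 4 (11.7%), all higher in spleen (7.56%) and 0 lower (4.13%): Tnfrsf9, Tnfrsf13b, Tnfsf18 and Traf1. In liver against spleen there were 5 (3.03%), all lower in liver (1.31%): Nfkb1, Nfkbia, Rel, Tnfrsf9 and Tnfsf18. The F-test had 5 (9.95%): Nfkbia, Tnfrsf9, Tnfrsf13b, Tnfsf18 and Traf1. edgeR on the recovered reads called 0 members in all 4 tests (0.165%, 0.278%, 0.015% and 0.225% of all genes). DESeq2 on the same reads called 0 in liver against thymus (3.41% of all genes), Tnfrsf9 and Tnfsf18 in spleen against thymus (3.85%), and Tnfrsf9 in liver against spleen (0.165%) and in the F-test (2.67%). The median standard error of a member's log2 fold change was 0.76. The remaining member, Tnfrsf8, was too low to be tested.

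**Figure D1:**
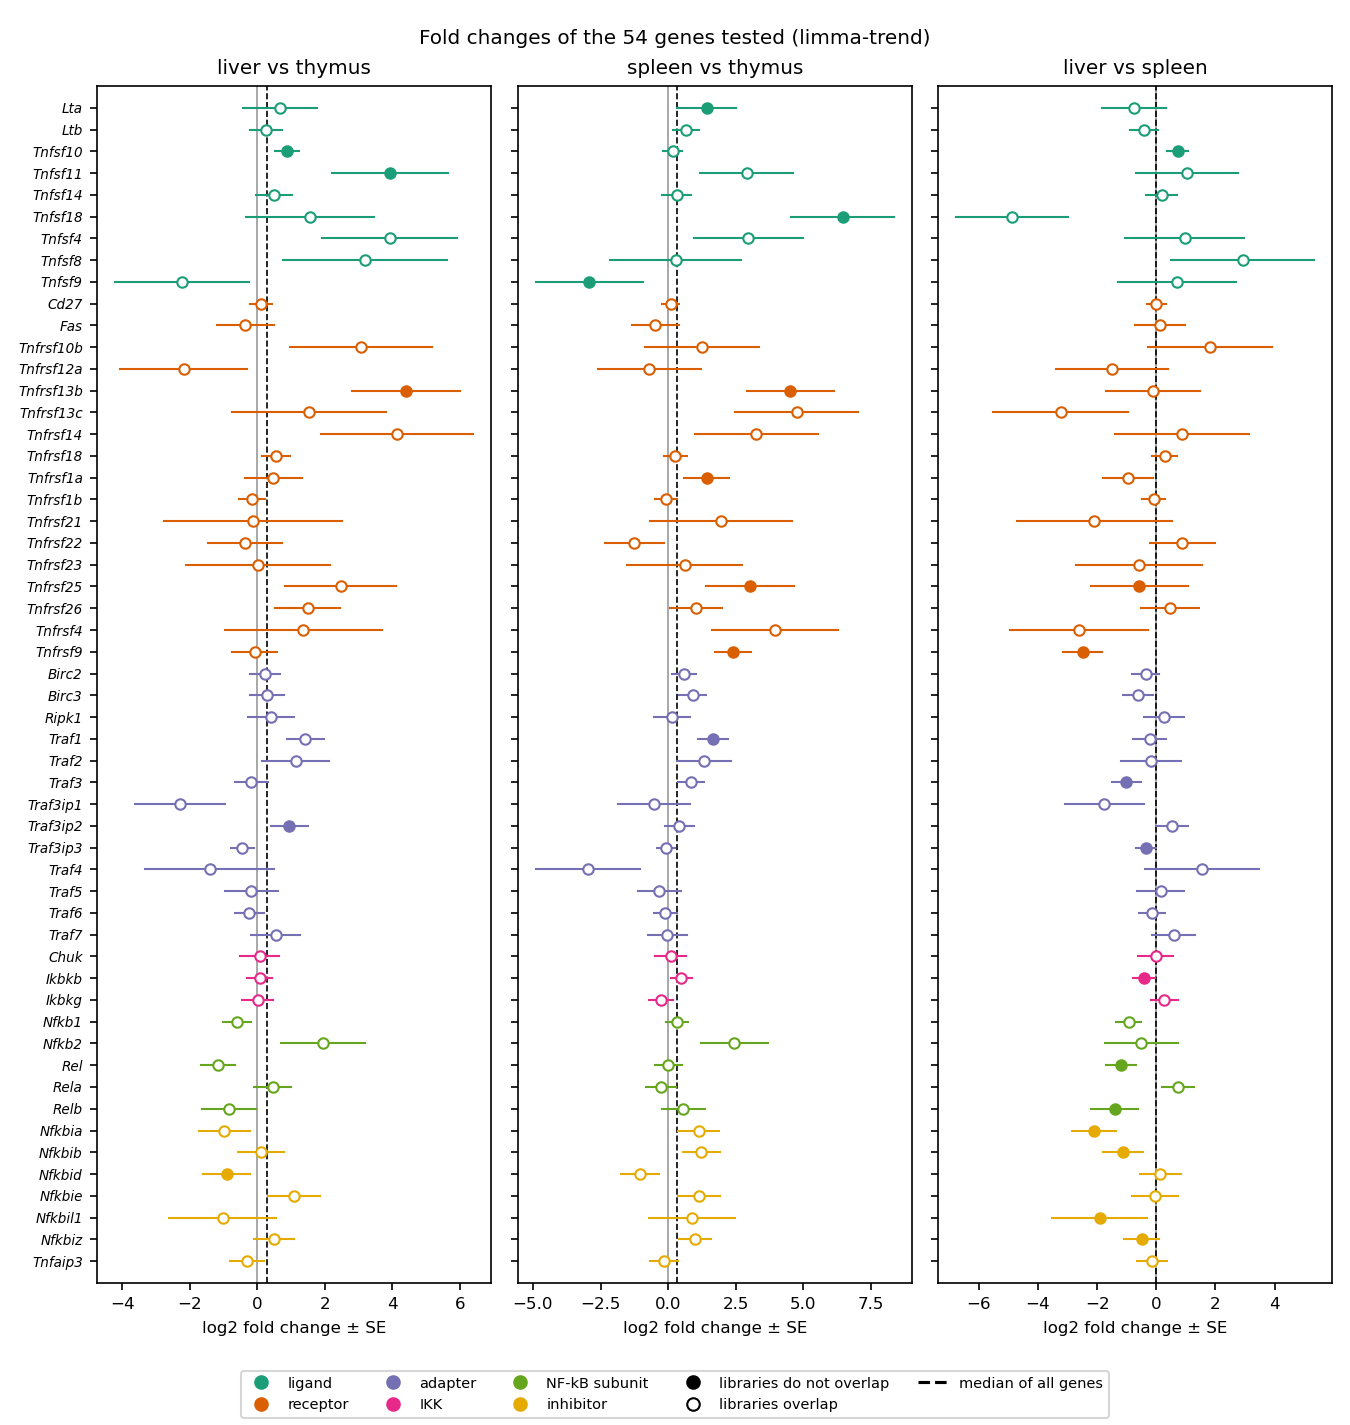
Log2 fold change with its standard error (x axis) of the 54 members tested (rows, grouped by role) in liver against thymus, spleen against thymus and liver against spleen, from limma-trend on log2(value + 1). No point passed an adjusted p of 0.05, and the widest bars belong to genes with libraries at or near 0.

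The median log2 fold change of the members was 0.24 in liver against thymus, 0.57 in spleen against thymus and -0.16 in liver against spleen, beside 0.29, 0.33 and -0.02 over all genes tested. Fitted values were above 0 for 34, 39 and 21 of the 54 members (63.0%, 72.2% and 38.9%), beside 59.9%, 61.2% and 48.9% of all genes tested. Under the scaling of edgeR the median of all genes moved to -0.02, 0.03 and -0.05, and that of the members to 0.04, 0.40 and -0.22, with 30, 35 and 18 members above 0, beside 49.1%, 51.0% and 47.2% of all genes. On both scales the members' median stood above that of all genes in spleen against thymus and below it in liver against spleen, and in liver against thymus its side changed with the scale. The thymus libraries enter both of the first comparisons, so the values in liver and spleen are not independent of each other.

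For some members the 3 libraries of one tissue all lay on one side of the 3 of the other. There were 5 in liver against thymus, where 14.8% of all genes tested did so: 4 higher in liver (9.06% of all genes) and Nfkbid lower (5.73%). There were 8 in spleen against thymus (14.8% of all genes), of which 7 were higher in spleen (9.29%) and Tnfsf9 was lower (5.49%). In liver against spleen the count was 12 (12.7% of all genes). Of these, 11 were lower in liver, 20.4% of the members tested beside 6.86% of all genes tested: Ikbkb, Nfkbia, Nfkbib, Nfkbil1, Nfkbiz, Rel, Relb, Tnfrsf9, Tnfrsf25, Traf3 and Traf3ip3. Tnfsf10 was the 1 member that lay higher in all liver libraries (5.87% of all genes). The 11 were found by looking at the values, and the count of 11 has no test of its own. In RNA from bulk cells, fewer cells that express a gene and less RNA of it per cell cannot be told apart.

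**Figure D2:**
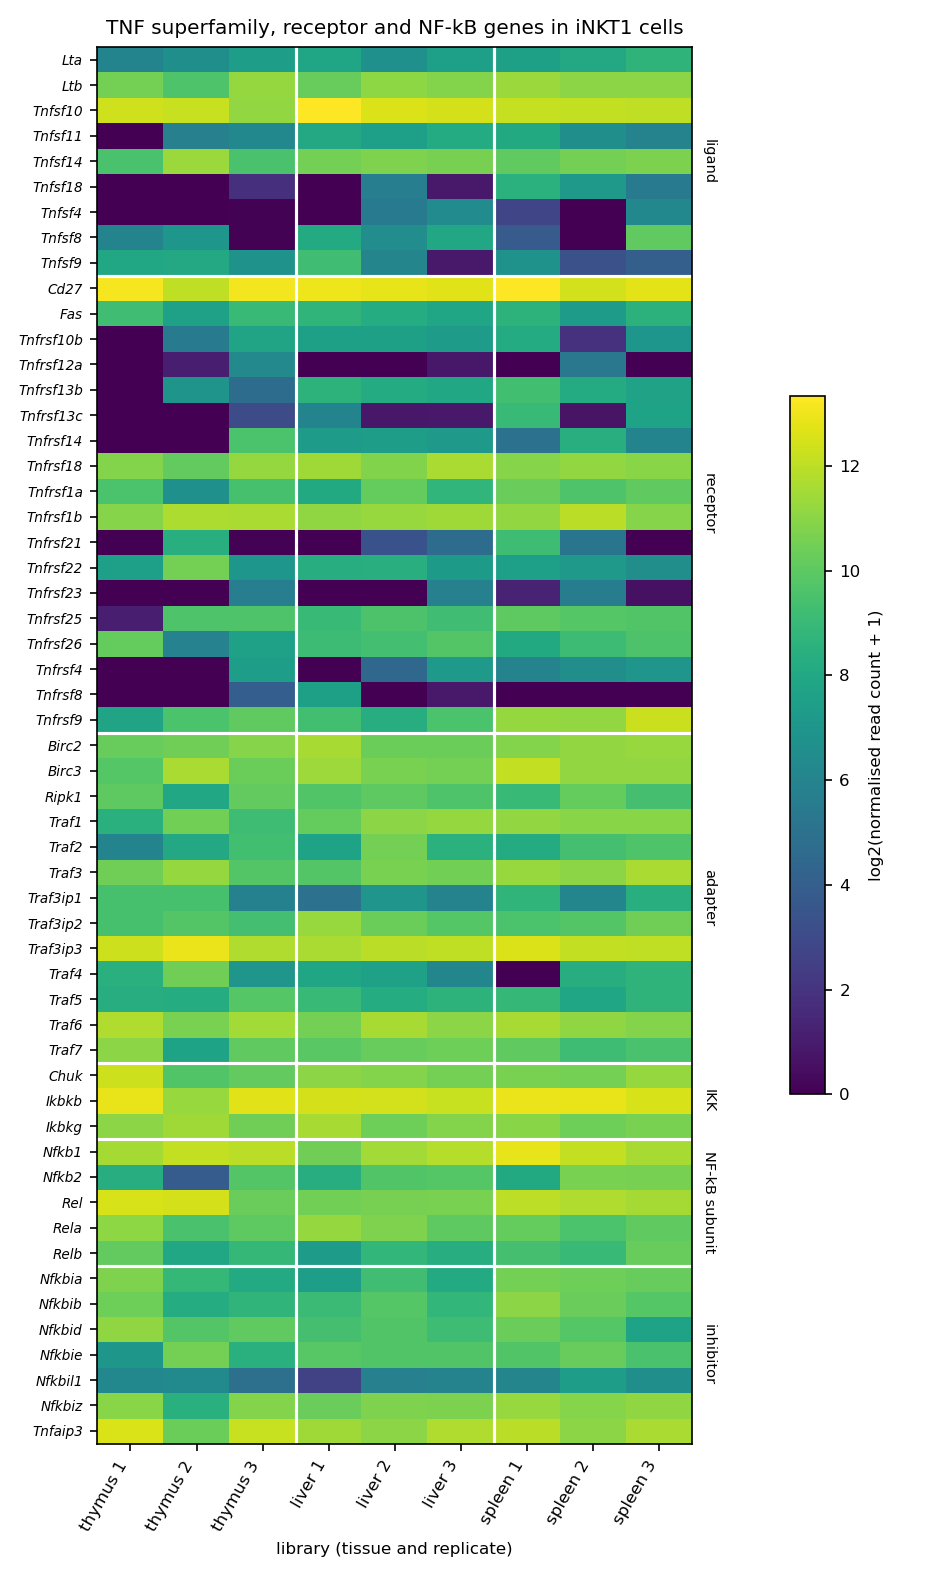
Log2(value + 1) of each member (rows, grouped by role) in each of the 9 libraries (columns, tissue and replicate). Most signalling genes were present in every library, and thymus replicate 1 has the most members with no read (12).

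The promoters of the members were searched for a κB consensus, the 10-base element that NF-κB dimers bind. The element, searched on both strands as the general NF-κB consensus, was present in 4.505% of the 32851 RefSeq promoter windows (250 bases before to 50 after the start) and in 5.136% of 27025 genes. Of the 45 members with a window, 10 held it (22.222%): Ltb, Nfkb2, Nfkbia, Nfkbid, Nfkbie, Rel, Tnfaip3, Tnfrsf8, Tnfrsf9 and Traf3. Among the members that lay lower in all liver than in all spleen libraries, 8 had a window: Nfkbia, Rel, Tnfrsf9 and Traf3 held the element, and Nfkbib, Nfkbil1, Tnfrsf25 and Traf3ip3 did not. Of the other 37 members with a window, 6 held it. The group of 8 was found by looking at the values, and Ikbkb, Nfkbiz and Relb, also lower in liver, had no window. These counts have no test and were not compared. The 250 bases before the start of Nfkbia, Rel, Tnfrsf9 and Traf3 are shown because both features meet in them. The shared element is thus how they were picked and not a result. They are from RefSeq on GRCm38.p6, written 5′ to 3′ on the gene's strand, with the element in capitals. Overlapping matches are merged. A match describes letters and is not evidence of binding in these cells.
Tnfrsf9, chr4:150927749-150927998, plus strand: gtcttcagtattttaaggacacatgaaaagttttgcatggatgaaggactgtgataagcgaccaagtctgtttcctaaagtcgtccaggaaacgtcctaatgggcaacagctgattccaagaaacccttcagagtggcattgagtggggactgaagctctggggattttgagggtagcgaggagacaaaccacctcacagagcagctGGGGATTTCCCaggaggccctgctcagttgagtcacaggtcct
Nfkbia, chr12:55492648-55492897, minus strand: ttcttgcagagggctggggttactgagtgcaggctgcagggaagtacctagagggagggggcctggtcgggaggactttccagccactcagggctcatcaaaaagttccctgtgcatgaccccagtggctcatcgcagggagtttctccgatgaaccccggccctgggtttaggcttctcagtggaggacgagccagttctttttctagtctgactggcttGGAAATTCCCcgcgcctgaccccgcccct
Rel, chr11:23770970-23771219, minus strand: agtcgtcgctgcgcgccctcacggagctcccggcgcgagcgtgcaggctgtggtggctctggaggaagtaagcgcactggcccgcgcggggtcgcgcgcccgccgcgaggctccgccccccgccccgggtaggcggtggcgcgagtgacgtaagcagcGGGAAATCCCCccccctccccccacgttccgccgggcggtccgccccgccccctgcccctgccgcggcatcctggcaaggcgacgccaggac
Traf3, chr12:111166120-111166369, plus strand: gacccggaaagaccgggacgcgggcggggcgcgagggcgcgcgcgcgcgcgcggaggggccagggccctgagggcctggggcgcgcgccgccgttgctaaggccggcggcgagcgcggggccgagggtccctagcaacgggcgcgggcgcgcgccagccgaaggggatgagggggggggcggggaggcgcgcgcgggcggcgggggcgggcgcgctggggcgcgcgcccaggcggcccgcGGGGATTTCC
The first base of the element lies 43 bases before the start of Tnfrsf9, 29 before that of Nfkbia, 92 before that of Rel and 10 before that of Traf3. Windows were not found for Ikbkb, Nfkb1, Nfkbiz, Relb, Tnfrsf10b, Tnfrsf22, Tnfrsf26, Tnfsf4, Tnfsf9 and Traf3ip2.

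Tnfrsf9 (ENSMUSG00000028965, chr4:150914562-150946102 on GRCm38) encodes 4-1BB, a co-stimulatory receptor induced on activated T cells, and it had the smallest F-test p of the members. It stood at 219.8, 753 and 1071 in thymus, 636, 316 and 746 in liver, and 2371, 2283 and 4913 in spleen. The lowest spleen library lay above the highest library of either other tissue. The mean was 3189 ± 1493 (SD, n = 3) in spleen, 566 ± 224 in liver and 681 ± 429.9 in thymus. The log2 fold change of liver against spleen was -2.49 (SE 0.66, 95% interval -3.89 to -1.08), with an unadjusted p of 0.00181 and an adjusted p of 0.9999 in limma-trend. Across 21 alternatives on the same libraries the direction held in 21, and the fold change ran from -2.80 to -2.11. Because liver and spleen did not overlap, leaving out a library could not turn this direction. The adjusted p ran from 0.0119 with limma array weights, through 0.0384 with DESeq2, to 1. For spleen against thymus the log2 fold change was 2.41 (SE 0.66), with an adjusted p of 0.166 in limma-trend and 0.0146 in DESeq2. Without spleen replicate 1, the library rich in B cell and myeloid transcripts, the log2 fold change of liver against spleen was -2.65. Regulatory T cells are another source of 4-1BB transcripts, and 3 of their markers (Il2ra, Ikzf2 and Ctla4) summed to 10894 to 15658 in spleen, 7495 to 9314 in liver and 4767 to 13544 in thymus. Ikzf2, which encodes Helios, was at 4844, 2515 and 7335 in thymus, 3273, 2816 and 1376 in liver, and 7873, 10787 and 8055 in spleen, with every liver library below every spleen library. Its log2 fold change of liver against spleen was -1.92 (SE 0.41), with an adjusted p of 0.601 in limma-trend and 0.0316 in DESeq2. Il2ra and Ctla4 overlapped between liver and spleen and leaned the other way. Their log2 fold changes of liver against spleen were 0.35 (SE 1.39) and 1.46 (SE 1.80). The part of these markers in the Tnfrsf9 values was not tested, and Foxp3 was not analysed here.

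Among other co-stimulatory receptors of T cells, Cd27, Tnfrsf18 and Tnfrsf4 overlapped between all tissues. Cd27, the receptor of CD70, was the most abundant member per exon length in all 3 tissues, with medians of 3749, 3126 and 3050 per kilobase in thymus, liver and spleen, and it ranked above 98.76% or more of all genes with a length. Its values were 9112, 4194 and 8727 in thymus, 8074, 7278 and 6911 in liver, and 10178, 5554 and 7101 in spleen. The 3 tissues overlapped, and the means were 7344 ± 2735, 7421 ± 595 and 7611 ± 2354 (SD, n = 3). Tnfrsf18, which encodes GITR, was at 1851, 1123 and 2422 in thymus, 2747, 1799 and 3154 in liver, and 1906, 2263 and 2023 in spleen. Its exons overlap a gene on the other strand over 27.2% of their length, and the use of strand in counting was not given in the sources used here. Tnfrsf4, the OX40 receptor, was low: no read, no read and 178 in thymus, no read, 20.6 and 145 in liver, and 60.3, 93.5 and 121 in spleen. Of its 9 libraries, 3 had no read, so that no tissue was uniformly positive except spleen.

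The receptors for TNF itself were present in every library. Tnfrsf1a, the death-domain receptor TNFR1, was at 757, 102 and 698 in thymus, 276, 1178 and 443 in liver, and 1239.8, 794 and 1062 in spleen. Each spleen library lay above each thymus library, with a log2 fold change of 1.42 (SE 0.84), and liver spanned both. Tnfrsf1b, the receptor TNFR2 that recruits TRAF2, was at 1930.5, 3347 and 3203 in thymus, 2198, 2449 and 2744 in liver, and 2270.1, 3996 and 1933 in spleen, and its tissues overlapped. Fas, the receptor of Fas ligand, was at 599.8, 200.1 and 516 in thymus, 427, 302 and 231 in liver, and 385, 157 and 381 in spleen. Its highest value was in thymus and its lowest in spleen, with overlap throughout. Tnfrsf25, which encodes DR3, stood at 1.14, 815 and 811 in thymus, 505, 784 and 600.3 in liver, and 1037, 909 and 823 in spleen. It lay higher in all spleen libraries than in the liver and thymus libraries, but the distance from thymus replicates 2 and 3 to the lowest spleen value was small. Thymus replicate 1 stood apart at 1.14.

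Tnfrsf13b and Tnfrsf13c are receptors for the B cell survival factor BAFF and are best known on B cells. Tnfrsf13b, which encodes TACI, was at no read, 117 and 25.1 in thymus, 398, 293 and 255 in liver, and 619, 297 and 204 in spleen. All liver and spleen libraries lay above all thymus libraries, with log2 fold changes of 4.41 (SE 1.60) and 4.52 (SE 1.60), and adjusted p of 0.3004 and 0.283 in limma-trend. Without spleen replicate 1 the second of these was 4.08. Tnfrsf13c, the BAFF receptor, was at no read, no read and 7.58 in thymus, 62.6, 0.831 and no read in liver, and 503, 0.630 and 214 in spleen. It was high in spleen replicates 1 and 3 and in liver replicate 1, and at most 7.58 elsewhere. The B cell marker sums, in the same order, were 0.125, 303 and 12.8 in thymus, 853, 5.95 and 221 in liver, and 4120, 65.9 and 223 in spleen; their part in the values of either receptor was not tested. The highest values of Tnfrsf13b, in spleen replicate 1 and liver replicate 1, fell in the libraries with the highest B cell sums. Other libraries did not follow that order. Liver replicate 2 was at 293 with a sum of 5.95, and thymus replicate 2 at 117 with a sum of 303.

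**Figure D3:**
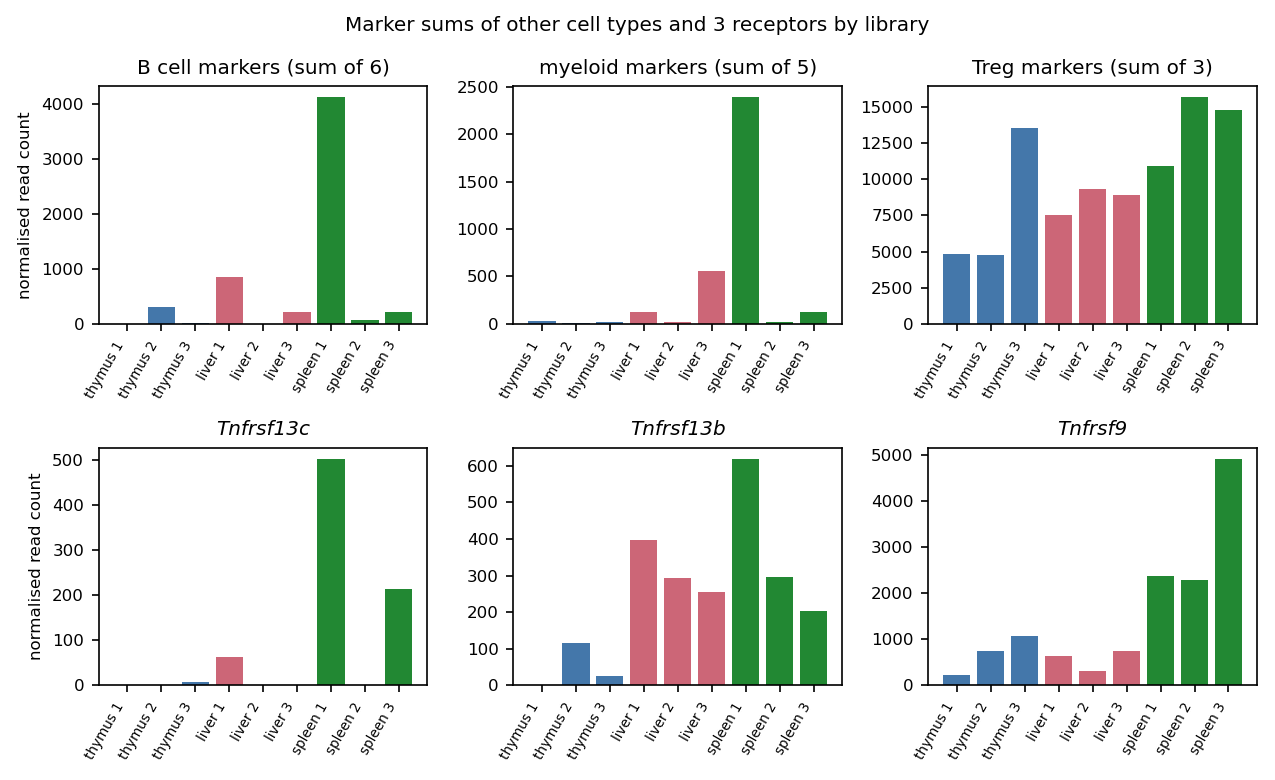
Summed normalised read counts of B cell, myeloid and regulatory T cell markers, and the values of Tnfrsf13b, Tnfrsf13c and Tnfrsf9, as bars for each of the 9 libraries (x axis, tissue and replicate; y axis, normalised read count). The B cell and myeloid sums were highest in spleen replicate 1, as was Tnfrsf13c, while Tnfrsf9 was highest in spleen replicate 3.

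The remaining receptors were unevenly detected. Tnfrsf10b, the mouse death receptor for TRAIL, had no read in thymus replicate 1, ranged over 2.69 to 297 elsewhere, and overlapped between tissues. The TRAIL decoy receptors Tnfrsf22 and Tnfrsf23 and their neighbour Tnfrsf26 lie together on chromosome 7 and are close paralogs, so their counts are uncertain. Tnfrsf22 ranged over 95.3 to 1501 and Tnfrsf26 over 60.2 to 1177, while Tnfrsf23 had 50.2 in thymus replicate 3, 55.1 in liver replicate 3 and 49.5 in spleen replicate 2 and at most 1.44 in the others. Tnfrsf14, the HVEM receptor of LIGHT, was at no read, no read and 758 in thymus, 167, 177 and 146 in liver, and 30.5, 341 and 64.1 in spleen. It had no read in 2 thymus libraries and its highest value in the third. Tnfrsf21, a death-domain receptor, was at 587 in spleen replicate 1 and 334 in thymus replicate 2 and at 35.0 or less in the other libraries. Tnfrsf12a, the TWEAK receptor, exceeded 3 reads in thymus replicate 3 (76.5) and spleen replicate 2 (39.8), and Tnfrsf8, which encodes CD30, in thymus replicate 3 (15.1) and liver replicate 1 (189.7). Of the 18 receptors, 7 lie on chromosome 4, Tnfrsf9, Tnfrsf4, Tnfrsf18 and Tnfrsf25 among them.

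Among the ligands, Tnfsf10, which encodes TRAIL, an inducer of death in cells with its receptor, stood at 5369.8, 4821 and 2321 in thymus, 10296, 6372 and 5747 in liver, and 4535, 4442 and 4191 in spleen. Every liver library lay above every library of the other tissues, and the means were 7472 ± 2466 in liver, 4171 ± 1625 in thymus and 4389 ± 178 in spleen (SD, n = 3). The log2 fold change was 0.88 (SE 0.35, adjusted p 0.349 in limma-trend) against thymus and 0.72 (SE 0.35, adjusted p 0.9999) against spleen. Tnfsf11, which encodes RANKL, was lower, at no read, 54.4 and 72.8 in thymus, 265, 186 and 295 in liver, and 275, 99.7 and 61.7 in spleen. All liver libraries lay above all thymus libraries (log2 fold change 3.93, SE 1.72, adjusted p 0.397 in limma-trend), and spleen spanned the gap.

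Tnfsf18, the ligand of GITR, was low outside spleen. Its values were no read, no read and 2.56 in thymus, no read, 51.5 and no read in liver, and 368, 147 and 44.3 in spleen. The 3 spleen libraries lay above all thymus libraries, in which at most 2 reads were found, and the spleen mean was at least 52.2-fold higher than a floor of 3 reads per thymus library. This bound covers counting error only. DESeq2 gave an adjusted p of 0.0386 for spleen against thymus, and limma-trend 0.195. Against liver, spleen was not fully separated, because liver replicate 2 was at 51.5. GITR ligand is usually found on antigen-presenting cells, and the 5 myeloid markers summed to 2387, 24.0 and 123 in spleen replicates 1, 2 and 3, beside 10.55 to 36.0 in thymus and 23.9 to 563 in liver. The 3 dendritic cell markers in the table summed to 75.1, 697 and 346 in spleen, 159 to 893 in thymus and 427 to 1762 in liver. The part of either list in the result was not tested.

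The lymphotoxin and LIGHT genes were expressed in every library. Ltb, the membrane anchor of the lymphotoxin heterotrimer, was at 1487, 804 and 2348 in thymus, 1187, 2156 and 1841 in liver, and 2574, 2096 and 2050.2 in spleen. Lta, its partner, was at 62.8, 97.2 and 172 in thymus, 233, 101 and 182 in liver, and 190.1, 267 and 409 in spleen. All spleen libraries exceeded all thymus libraries for Lta (log2 fold change 1.43, SE 1.09), but the nearest values were 190.1 and 172. Tnfsf14, which encodes LIGHT, was at 719.7, 2575 and 736 in thymus, 1493, 1702 and 1527 in liver, and 1074, 1501 and 1658 in spleen and overlapped between tissues. Tnfsf8, the CD30 ligand, was at 63.9, 129.5 and no read in thymus, 281, 92.7 and 254 in liver, and 13.4, no read and 1090.5 in spleen, and 1 spleen library held the highest value while another had no read. Tnfsf9, the 4-1BB ligand, ranged over 113 to 265 in thymus, from no read to 613 in liver and over 8.88 to 110 in spleen, so that every thymus library lay above every spleen library. Tnfsf4, the OX40 ligand, had no read in any thymus library and up to 84.7 elsewhere, in 2 liver and 2 spleen libraries; the means of liver and spleen were at least 12.01-fold and 7.48-fold higher than the thymus floor.

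Of the 13 adapters, Traf1 had the smallest F-test p. It encodes a TRAF without a RING domain that binds 4-1BB and TNFR2 complexes. It was at 346, 1435 and 589 in thymus, 1145, 2070.1 and 2354 in liver, and 2325, 1964 and 1960.4 in spleen. The spleen libraries lay above all thymus libraries, and liver replicates 2 and 3 did too. The log2 fold change was 1.42 (SE 0.55) in liver and 1.64 (SE 0.55) in spleen against thymus, with adjusted p of 0.334 and 0.256 in limma-trend. Traf3, which holds the noncanonical route in check, was at 1387, 2360.1 and 864 in thymus, 863, 1583 and 1442 in liver, and 2471, 2060.5 and 3157 in spleen. Each spleen library exceeded each liver library, with a log2 fold change of liver against spleen of -1.01 (SE 0.48, adjusted p 0.9999 in limma-trend). Traf3ip3, a protein that binds TRAF3, was among the more abundant members per length and was at 5115, 7756 and 3448 in thymus, 3234, 3997 and 4246 in liver, and 6222, 4358 and 4287 in spleen. Its liver values all lay below its spleen values, the nearest being 4246 and 4287.

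The other adapters overlapped between all tissues, except for Traf3ip2. Traf2, the main adapter of the TNF receptors, was at 63.9, 259 and 629 in thymus, 209.6, 1483 and 358 in liver, and 296, 676 and 805 in spleen, with a single high liver library. Traf6, which also serves IL-1 and Toll-like receptors, was at 3454, 1576 and 2891 in thymus, 1488, 3089.6 and 2059.9 in liver, and 3020.1, 2221 and 1879 in spleen. Ripk1, the kinase that directs TNFR1 signals to survival or death, was at 1043, 257 and 1101 in thymus, 842, 1026 and 800.2 in liver, and 503, 1154 and 674 in spleen. None of these separated the tissues. The ubiquitin ligases cIAP1 and cIAP2 are encoded by neighbouring genes on chromosome 9. Birc2 was at 1180.5, 1399 and 1891 in thymus, 3055, 1291 and 1279 in liver, and 1864, 2277 and 2479 in spleen. Birc3, an NF-κB target, was at 887, 3143 and 1284 in thymus, 2665, 1611 and 1503 in liver, and 4403, 2274 and 2339.8 in spleen. Both overlapped between tissues, with the lowest value of each in thymus replicate 1. Traf3ip2, the IL-17 receptor adapter Act1, was higher in all liver libraries (885 to 2472) than in all thymus libraries (653 to 860), and spleen was at 757 to 1412. Traf5 ranged over 229.7 to 896, Traf7 over 215 to 2095, Traf3ip1 over 30.4 to 704 and Traf4 from no read in spleen replicate 1 to 1371 in thymus replicate 2.

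None of the 3 IκB kinase subunits passed the test. Ikbkb, the catalytic subunit IKKβ of the canonical route, was at 7659, 2438 and 6893 in thymus, 5636, 5488 and 4767 in liver, and 7839.9, 7629.8 and 5905 in spleen. Its liver libraries lay below its spleen libraries, with a log2 fold change of -0.42 (SE 0.38). Chuk, the IKKα subunit, was at 5163, 827 and 1127 in thymus, 2030.5, 1837 and 1478 in liver, and 1620.0, 1478 and 2425 in spleen, and the high thymus value stood alone. Ikbkg, the scaffold subunit NEMO, was at 2037, 2719 and 1383 in thymus, 3127, 1359 and 1835 in liver, and 2022, 1336 and 1622 in spleen. Both overlapped between all tissues.

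Of the 5 NF-κB subunits, Rel and Relb lay lower in all liver than in all spleen libraries. Rel, the T cell subunit c-Rel, was at 5848, 5631 and 1248 in thymus, 1419.7, 1571 and 1624 in liver, and 4175, 3403 and 2955 in spleen. The 3 liver values spanned only 1419.7 to 1624, whereas thymus replicate 3 lay below them and the other thymus libraries were the highest of all. The log2 fold change was -1.18 (SE 0.51, unadjusted p 0.0341, adjusted p 0.9999 in limma-trend) against spleen. Against thymus it was -1.17 (SE 0.51, adjusted p 0.393), and without thymus replicate 3 it was -1.90 with an adjusted p of 0.0301 in limma-trend, the single call among the members when a library was left out. Relb, the subunit of the noncanonical route, was at 1105, 243 and 476 in thymus, 157, 457 and 309.7 in liver, and 672, 513 and 1205 in spleen, with a log2 fold change of liver against spleen of -1.40 (SE 0.79).

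Nfkb1, which encodes p105 and p50, was at 2955, 4344 and 3984 in thymus, 1379, 2834 and 3677 in liver, and 7331, 4406 and 3126 in spleen. Its log2 fold change of liver against spleen was -0.94 (SE 0.42, adjusted p 0.9999 in limma-trend), but liver replicate 3 lay above spleen replicate 3. Nfkb2, which encodes p100 and p52, was at 314, 13.9 and 879 in thymus, 318, 823 and 884 in liver, and 274, 1583 and 1529 in spleen. Thymus replicate 2 was far below the others, and liver and spleen overlapped. Rela, the p65 subunit, was at 2137, 726 and 1045 in thymus, 2386, 1702 and 1030.3 in liver, and 1164, 753 and 1069 in spleen. It was the subunit with a liver mean (1706 ± 678, SD, n = 3) above its spleen mean (995 ± 215), and its tissues overlapped.

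Among the 7 members grouped here as inhibitors, 6 had a lower fitted value in liver than in spleen, beside 51.1% of all genes. The 6 include Nfkbie and Tnfaip3, whose log2 fold changes were near 0, at -0.04 (SE 0.77) and -0.14 (SE 0.51). Of the 6, 4 (Nfkbia, Nfkbib, Nfkbil1 and Nfkbiz) did not overlap, beside 6.86% of all genes lower without overlap. Whether each acts as an inhibitor in these cells was not tested. These counts describe a small group and have no test. Nfkbia, the feedback inhibitor IκBα, was at 1716, 463 and 286 in thymus, 172, 601 and 286 in liver, and 1486, 1327 and 1209 in spleen. The spleen values lay close together, all above the liver values, and thymus replicate 1 was the highest library. The mean was 1341 ± 139 in spleen and 353 ± 222 in liver (SD, n = 3), and the log2 fold change was -2.11 (SE 0.75, unadjusted p 0.0135, adjusted p 0.9999 in limma-trend). It held its direction in 21 of 21 alternatives on the same libraries, between -2.59 and -1.68. Because liver and spleen did not overlap, leaving out a library could not turn that direction. Nfkbiz, the nuclear protein IκBζ, was at 1997, 349 and 1873 in thymus, 1262, 1735 and 1678 in liver, and 2457, 1891 and 2222 in spleen, and the nearest liver and spleen values were 1735 and 1891. Nfkbib, which encodes IκBβ, was at 1353, 304 and 422 in thymus, 544, 893 and 449 in liver, and 2045, 1227 and 897 in spleen, and the nearest liver and spleen values were 893 and 897. Nfkbil1 was low, at 5.19 to 61.2 in liver and 65.6 to 172 in spleen.

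Tnfaip3, which encodes the deubiquitinase A20, was at 6168, 1271 and 4763 in thymus, 2777, 2084 and 3410.1 in liver, and 4002, 2092 and 3156 in spleen. Its tissues overlapped, and its log2 fold change of liver against spleen was -0.14 (SE 0.51). Nfkbid, which encodes IκBNS, was lower in all liver libraries (576 to 829) than in all thymus libraries (857 to 2250), and spleen ranged over 213 to 1270. Nfkbie, which encodes IκBε, ranged over 131 to 1494 in thymus, 836 to 935 in liver and 721 to 1188 in spleen. Exons of Nfkb2, Nfkbib, Nfkbil1 and the ligand gene Tnfsf9 overlap genes on the other strand over 18.1%, 16.4%, 16.4% and 14.9% of their length, and reads of the overlapping genes cannot be told apart without strand.

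**Figure D4:**
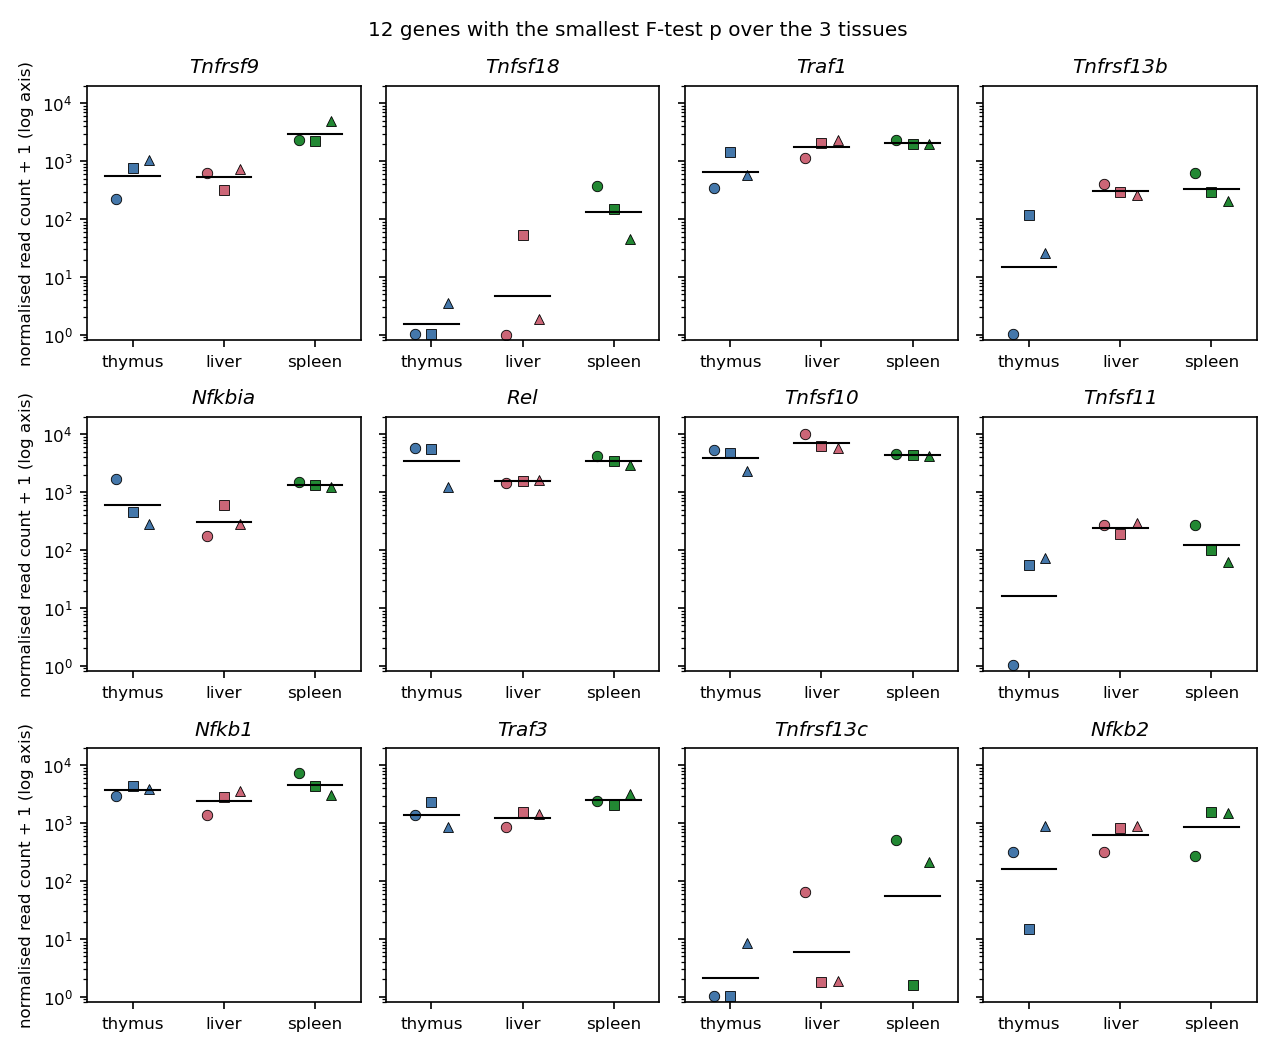
Normalised read count (log y axis) of the 12 members with the smallest F-test p in thymus, liver and spleen (x axis); each point is a library, with the shape giving its replicate number, and the line is the mean of the log values. Tnfrsf9, Nfkbia, Rel and Traf3 show 3 spleen points above 3 liver points, and Tnfsf10 shows 3 liver points above all others.

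Another 2 lists of pathway genes, chosen with earlier results of these data known, were read beside the members. Of 36 signalling partners, 31 were in the table and tested, and limma-trend called 0 in each comparison, as did edgeR and DESeq2. At an unadjusted limma p of 0.05 there were 2 in liver against thymus (11.6% of all genes): Cd40lg higher and Rnf31 lower. In spleen against thymus there were 4 (11.7%), 3 of them higher: Tnf, Cd40lg and Bcl10. In liver against spleen there were 0 (3.03%). The median log2 fold changes of the partners were 0.08, 0.20 and -0.26, and in DESeq2 -0.08, 0.08 and -0.25. The sign in liver against thymus thus changed with the tool. Tnf, the founding ligand, was at 51.6, 57.9 and 752 in thymus, 589, 531 and 467 in liver, and 986, 994 and 369 in spleen. Thymus replicates 1 and 2 were low and thymus replicate 3 was in the range of the other tissues. Cd40lg, the CD40 ligand, was at 1627, 1208 and 2588 in thymus, 3638, 3949 and 2532 in liver, and 3122, 3866 and 2617 in spleen. Rnf31, the catalytic subunit of the linear ubiquitin ligase, was at 1951, 5473 and 1697 in thymus, 1812, 744 and 734 in liver, and 2741, 1375 and 1576 in spleen. For Cd40lg all spleen libraries lay above all thymus libraries, and for Rnf31 the tissues overlapped. Fasl, which encodes Fas ligand, was at 4270, 5985 and 5931 in thymus, 3635, 4743 and 3326 in liver, and 3890, 4526 and 3249 in spleen. Unlike Tnfsf10, it was not higher in liver. Its log2 fold change was -0.47 (SE 0.31) against thymus and 0.0009 (SE 0.31) against spleen, and its tissues overlapped. Bcl10 and Fasl were named after their values were seen.

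Of 20 genes known as NF-κB targets, 17 were in the table and tested. Limma-trend and edgeR called 0 in each comparison, and DESeq2 called Cxcl10 in liver and in spleen against thymus and in the F-test. At an unadjusted limma p of 0.05 there were 4 in liver against thymus (11.6% of all genes): Cxcl10, Ccl5, Csf2 and Il2ra. In spleen against thymus there were 3 (11.7%): Cxcl10, Ccl5 and Csf2. All were higher than in thymus, and there were 0 in liver against spleen (3.03%). The median log2 fold changes were 1.84, 1.81 and 0.02, beside 0.29, 0.33 and -0.02 over all genes. In DESeq2 they were 1.08, 0.74 and 0.03, beside -0.04, -0.02 and -0.02 over all genes. The list holds genes with no thymus reads or near 0 in some thymus libraries, such as Ebi3, and the fitted values of these depend on the pseudocount. Cxcl10, a ligand of CXCR3, was at 1.14, 1.18 and 5.06 in thymus, 99.1, 1006 and 838 in liver, and 146, 122 and 306 in spleen, with at most 4 reads in a thymus library. Ccl5, a chemokine of effector T cells, was at 3637, 3356 and 777 in thymus, 8074, 5903 and 5821 in liver, and 8190.3, 8682 and 5938 in spleen. Csf2, which encodes GM-CSF, was at no read, no read and 28.9 in thymus, 6.06, 165 and 468 in liver, and 292, 209.9 and 131 in spleen. For Cxcl10 and Ccl5 all liver and spleen libraries lay above all thymus libraries, and for Csf2 all spleen libraries did. Il2ra, the α chain of the IL-2 receptor, was at 16.8, 2249 and 6197 in thymus, 4036, 6363 and 7460.2 in liver, and 2964, 4866 and 6449 in spleen, and its thymus values spanned the widest range of the 3 tissues.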

How the data were processed

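RNA was measured in 9 iNKT1 libraries, 3 from each tissue. Ultralow-input libraries were made from total RNA and read for 76 cycles, per the labels' protocols. Per the submitters' processing notes, the tools were Trimmomatic 0.33, TopHat2 2.1.0, HTSeq 0.6.1 and edgeR, and the build was mm10. The authors deposited 1 table of normalised read counts, a signal that is not whole; the scaling and the use of strand were not given in the sources used here. Low values lie on equal steps, so reads were recovered per library; among values worth 20 reads or fewer, 94.1% came out whole to within 0.1 reads (75.4% in liver replicate 3, 98.5% or more elsewhere).

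Tests were limma-trend (limma 3.58.1, R 4.3.3) on log2(value + 1), over the 13309 genes that reached a value of 1 in 3 or more libraries. All 9 libraries entered 1 fit with a term per tissue; p-values are two-sided, with Benjamini-Hochberg adjustment and a threshold of 0.05. For low genes a fold change on this scale can lie above or below that of a count model. Tnfrsf13b in liver against thymus had a log2 fold change of 4.41, beside 2.73 in DESeq2. For Tnfsf18 in spleen against thymus it was 6.45, beside 7.82 in DESeq2. edgeR 4.0.16 and DESeq2 1.42.0 were run on recovered reads, rounded to whole numbers. The steps were tested on simulated data with the same dispersion for every gene and tissue. The spread of the real libraries is uneven, so the simulation gives no error rate for them. Where libraries were compared for overlap, values of 0 reads were set to 0. Lower bounds use 3 reads per library and cover counting error only, since no molecular identifiers are described. Symbols came from a name table (13359 of 14004 identifiers matched), and positions and exon lengths from GENCODE M21 on GRCm38. The members and lists were chosen with earlier results of these data known. Values in every library are given for the 12 members with the smallest F-test p and for a panel set by role; of each pathway list, the 4 genes with the smallest F-test p were to be given, of which 1 is not reported here. Alternatives were 2 pseudocounts, 2 filters, 2 scalings, the libraries entered, a replicate block, array weights, both count tools and leaving out each library.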

Additional observations from a re-analysis of the deposited data

How the results depend on the processing

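The 14 differences of single members with an unadjusted limma p under 0.05 kept their direction in all 21 alternatives. The differences were picked by their p in these libraries and the alternatives reuse the same libraries, so this is not independent support. Where libraries do not overlap, leaving a library out cannot turn the direction. Fitting only the 6 libraries compared called 12 of all genes in liver against thymus, 16 in spleen against thymus and 6 in liver against spleen, and 0 members. TMM factors called 89 of all genes in spleen against thymus. edgeR called 22 of all genes in liver against thymus and 30 in the F-test. DESeq2 called 454, 512, 22 and 355 of all genes in liver against thymus, spleen against thymus, liver against spleen and the F-test, and 2 members (Tnfrsf9 and Tnfsf18), 1 and 1 (Tnfrsf9) in the last 3. Array weights called 18 of all genes in liver against spleen and 74 in the F-test, with 1 member (Tnfrsf9) in each. Without the 3 libraries numbered 2, 12, 19, 0 and 16 of all genes were called in these 4 tests. In the 3 comparisons 22, 20 and 20 members did not overlap, which is easier to meet with fewer libraries. The share of all genes without overlap was not counted in this setting. The cause of the other changes was not tested.

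Residuals of same-numbered libraries correlated only weakly, at -0.0007 to 0.0891, none above 0.1. Those of differently numbered libraries from different tissues correlated at -0.0866 to 0.0484. The libraries with high Xist and few Y-linked reads shared a replicate number across the tissues. Whether same-numbered libraries came from the same animals or from animals of the same sex was not tested. With the number as a replicate block, 4 of all genes were called in liver against spleen, and 0 members in any test.

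Leaving out 1 library at a time called 8 to 151 of all genes in liver against thymus, 9 to 140 in spleen against thymus, 0 to 3 in liver against spleen and 18 to 74 in the F-test. It called 0 to 1 members in liver against thymus (Rel, without thymus replicate 3) and 0 to 0 in the other tests. Members without overlap then numbered 5 to 17, 8 to 21 and 12 to 19. The share of all genes without overlap was not counted in these settings, so these numbers cannot be set against it. Liver replicate 3, the shallowest library, had 1 read worth 6.05 in the deposited values, so that its low values are coarse.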
